A study of Rattus norvegicus with 12 samples.

Results

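The chloride cotransporter genes Slc12a5 and Slc12a2 and the GABA-B receptor genes Gabbr1 and Gabbr2 were followed in the rat inferior colliculus (IC), the auditory midbrain, after loss of hearing in the right ear. The members were chosen by gene symbol: each of the 4 genes had 1 probe listed with that symbol alone, and these are 4 of the 18166 genes with such a probe. Sprague-Dawley rats had the right cochlea surgically ablated (20 rats, the single-sided deaf arm) or underwent a sham procedure in which the skin behind the ear was cut but the bulla was not drilled (20 rats, the control arm). IC tissue was collected 2 weeks later, and 12 one-colour Affymetrix arrays were deposited. They form 4 groups of 3: left control, right control, left deaf and right deaf. The left IC lies opposite the ablated ear, and the right IC lies on its side. The labels name no genetic change, and they do not state the rats' age and sex and whether an array holds RNA of 1 rat or of several. What the p-values measure is thus the spread from array to array, which may be partly technical.

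Slc12a5 encodes KCC2, the potassium-chloride cotransporter that carries chloride out of mature neurons. Slc12a2 encodes NKCC1, the sodium-potassium-chloride cotransporter that carries chloride in, and is also used by glia, endothelium and the choroid plexus. Their balance helps to set the chloride gradient through which GABA-A and glycine receptors inhibit a cell, and inhibition of this kind shapes the responses of IC neurons to sound. Gabbr1 and Gabbr2 encode the subunits of the GABA-B receptor, which works as a heterodimer: the first binds GABA and the second couples to inhibitory G proteins that open potassium channels and close calcium channels.

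Several labels of the series name hippocampus, whereas titles, source names and tissue entries name the IC. The IC was taken as the tissue. Of 17 measured markers of tectal and inhibitory midbrain neurons, 14 had a mean above the median array value of 5.34, among them Gad1 (10.1) and the vesicular glutamate transporter gene Slc17a6 (9.75), and Pou4f1 (5.22), Slc6a5 (5.31) and Tfap2b (5.32) lay just below it. Of 13 measured hippocampal markers 8 had a mean above this median, among them Nrgn at 11.3 and Zbtb20 at 8.51. Those below it were Spink8 (3.55), Tbr1 (4.42), Emx2 (4.59), Neurod2 (5.25) and Neurod6. Neurod6, a gene of forebrain pyramidal neurons, lay between 2.92 and 4.08 on the 12 arrays. Which label is right was not tested. All 4 members lay above the upper quartile of their arrays, 6.94, on every array. In bulk tissue, fewer cells of a type and less RNA per cell cannot be told apart.

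The sequence just before each start site is shown because transcription factors known to act on these genes, EGR4 on Slc12a5 and ATF4 on Gabbr1, were themselves measured on the arrays. The windows hold the 250 bases upstream of the gene start in RefSeq's GRCr8 annotation, 5′ to 3′ on the gene's strand. Capitals mark GC boxes (GGGCGG, searched on both strands) and the core of the cyclic-AMP response element (TGACG, both strands), and none of these matches overlap. The windows are chr3:174115583-174115832 on the plus strand for Slc12a5, chr20:1499237-1499486 on the minus strand for Gabbr1 and chr5:66083696-66083945 on the minus strand for Gabbr2.
Slc12a5: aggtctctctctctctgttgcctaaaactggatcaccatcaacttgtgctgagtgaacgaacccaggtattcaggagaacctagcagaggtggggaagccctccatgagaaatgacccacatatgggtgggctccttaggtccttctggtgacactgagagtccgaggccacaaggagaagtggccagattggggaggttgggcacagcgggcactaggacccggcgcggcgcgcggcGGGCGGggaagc
Gabbr1: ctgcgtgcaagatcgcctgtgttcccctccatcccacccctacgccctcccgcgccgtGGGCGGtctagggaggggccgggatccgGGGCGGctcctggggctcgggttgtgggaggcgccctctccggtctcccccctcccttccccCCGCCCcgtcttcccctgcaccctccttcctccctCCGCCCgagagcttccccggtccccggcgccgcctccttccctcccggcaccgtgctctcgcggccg
Gabbr2: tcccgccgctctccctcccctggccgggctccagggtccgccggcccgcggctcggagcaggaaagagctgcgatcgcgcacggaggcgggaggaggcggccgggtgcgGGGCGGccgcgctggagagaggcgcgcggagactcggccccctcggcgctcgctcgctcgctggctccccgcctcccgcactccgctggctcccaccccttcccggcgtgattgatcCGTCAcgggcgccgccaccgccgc

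A GC box lay in each of these windows, with 4 matches for Gabbr1, 1 for Slc12a5 and 1 for Gabbr2, and in 30.5% of all 33469 windows of this length. The core element TGACG was found in the Gabbr2 window only, against 18.2% of all windows. No window of the 4 genes held an EGR site in the forms GCGTGGGCG or GCGGGGGCG, present in 0.478% and 2.45% of all windows, nor the full element TGACGTCA, present in 1.59%. These counts describe letters in a short window and say nothing of factor binding elsewhere. The GC content of the Slc12a5 window was 59.2%, below that of Gabbr1 (75.6%), Gabbr2 (78.8%) and Slc12a2 (83.2%). The median over all windows was 51.2%.

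None of the 4 genes differed between deaf and control arrays by the adjusted test, on either side or averaged over both, and all changes were small. The 8 changes within a side ran from -0.12 to 0.056 on the log2 scale, and the 95% intervals ran from -0.30 to 0.24 in all. Slc12a2 had the lowest values relative to control, by about the same amount on each side. Slc12a5, Gabbr1 and Gabbr2 had group means that differed by less than the spread between the arrays of a group or by about as much. The comparisons come from a limma fit across all genes with the 4 group means. Benjamini-Hochberg adjusted p-values were 1.00 for each member in the 3 deaf against control contrasts, which all use the same 12 arrays.

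**Figure D1:**
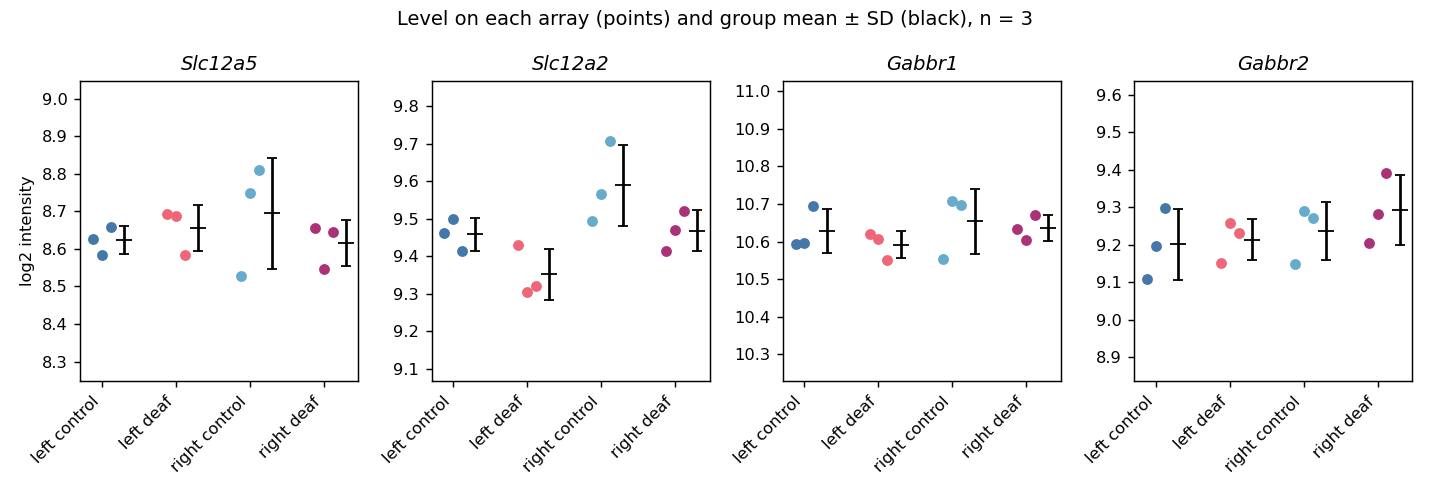
Log2 intensity of Slc12a5, Slc12a2, Gabbr1 and Gabbr2 on each of the 12 arrays (points, coloured by group), with the group mean ± SD beside them (black, n = 3 arrays). Each vertical axis spans 0.8 log2 units around the gene's mean. Slc12a2 is lowest in left deaf arrays and highest in right control arrays, and the other genes' groups overlap.

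Slc12a5 (KCC2; Entrez 171373) was at 8.63, 8.58 and 8.66 on the left control arrays and at 8.69, 8.69 and 8.58 on the left deaf arrays. On the right it was at 8.53, 8.75 and 8.81 in control and at 8.66, 8.55 and 8.64 in deaf arrays. The groups overlapped on each side, and right control held both the lowest and the highest array of the 12. The left IC had means of 8.62 ± 0.037 (SD, n = 3) for control and 8.66 ± 0.062 for deaf arrays, a difference of 0.032 (SE 0.087; 95% interval -0.16 to 0.22; unadjusted p = 0.717, limma). In the right IC they were 8.70 ± 0.15 and 8.62 ± 0.061, a difference of -0.080 (SE 0.087; -0.27 to 0.11; unadjusted p = 0.376, limma). These intervals correspond to between 0.896-fold and 1.17-fold on the left and between 0.829-fold and 1.08-fold on the right. The left-side value ran from 0.013 without left control 2 to 0.068 without left deaf 3. The right-side value depended on which control array was kept. Leaving out right control 1 gave -0.16, and leaving out right control 3 gave -0.023. In order of mean level the groups ran right control, left deaf, left control, right deaf, and no neighbours in that order differed beyond their spread.

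Slc12a2 (NKCC1; Entrez 83629) was at 9.46, 9.50 and 9.41 on the left control arrays and at 9.43, 9.30 and 9.32 on the left deaf arrays. On the right it was at 9.49, 9.57 and 9.71 in control and at 9.41, 9.47 and 9.52 in deaf arrays. On each side 2 of the 3 deaf arrays lay below every control array and the last lay within the control range, so the groups overlapped. The left means were 9.46 ± 0.044 (SD, n = 3) and 9.35 ± 0.068, a difference of -0.11 (SE 0.081; -0.28 to 0.070; unadjusted p = 0.212, limma). The right means were 9.59 ± 0.11 and 9.47 ± 0.054, a difference of -0.12 (SE 0.081; -0.30 to 0.056; unadjusted p = 0.161, limma). Averaged over sides the difference was -0.11 (SE 0.057; -0.24 to 0.011), or 0.924-fold with an interval of 0.848-fold to 1.01-fold. Its unadjusted p of 0.0704 (limma, adjusted p = 0.998) was the smallest of the 4 members. The averaged interval and p treat the arrays as independent, although left and right arrays may share rats. Means were lower in deaf rats on both sides for 26.8% of all genes, and 77.4% of genes had a smaller absolute change in the averaged contrast. For the right side, leaving out right control 1 gave -0.17 and leaving out right control 3 gave -0.061. The averaged value stayed between -0.14 and -0.084 with each array left out in turn.

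Slc12a2 was also lower in the left than in the right IC, in both arms. The difference was -0.13 in control arrays (SE 0.081; -0.31 to 0.045; unadjusted p = 0.132, limma) and -0.12 in deaf arrays (SE 0.081; -0.29 to 0.059; unadjusted p = 0.174, limma). Neither passed (adjusted p = 0.934 and 1.00, limma). The control difference was -0.072 without right control 3. The side by deafness interaction was 0.014 (SE 0.11; -0.23 to 0.26). The order of groups was therefore right control, right deaf, left control, left deaf, and neighbouring groups overlapped. Right control 3, which had the highest Slc12a2 level of the 12 arrays at 9.71, also had the highest cerebellar marker score (0.59) and the highest Slc12a5 level (8.81). Right control 1 had the next highest score (0.29) but the lowest Slc12a2 level of the right controls, 9.49. A link between score and level was not tested.

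Markers of other cells that use NKCC1 or neighbour the IC were in part lower where Slc12a2 was lower, and in part not. Of all genes, 51.8% had lower means in deaf arrays on the left and 49.5% on the right. Oligodendrocyte markers had lower means in deaf arrays for 10 of 14 genes on the left (median change -0.046) and for 14 of 14 on the right (-0.11). Their summed intensity was 13166 to 13642 in left control, 12401 to 13043 in left deaf, 13646 to 14869 in right control and 12589 to 13482 in right deaf arrays. The last of these ranges lay wholly below right control, and the left ranges did not overlap either. Astrocyte markers were lower for 8 of 11 genes on the left (-0.025) and 10 of 11 on the right (-0.048), and the ranges of their summed intensity overlapped (11852 to 13157 in left control, 11748 to 12797 in left deaf, 12614 to 13928 in right control and 12654 to 12780 in right deaf arrays). Endothelial and mural markers were lower for 8 of 10 genes on the left (-0.10) and 7 of 10 on the right (-0.081), with overlapping summed intensities of 1375 to 1476 in left control and 1282 to 1380 in left deaf arrays, and of 1300 to 1545 in right control and 1207 to 1432 in right deaf arrays. Choroid plexus markers were lower for 7 of 12 genes on the left (-0.036) and 5 of 12 on the right (0.077), and their summed intensity was 2023 to 2328 over the 4 groups. Only 4 of these 12 had a mean above the median array value, and Ttr (4.97) and Folr1 (4.84) lay below it. Enpp2 (10.7) was the brightest and weighed most in the sum, which therefore says little of choroid plexus content. Cerebellar markers were lower for 9 of 14 genes on the left (-0.043) and 12 of 14 on the right (-0.37), with summed intensities of 1637 to 1888 in right control arrays against 1549 to 1634 in the other groups. Meningeal and fibroblast markers ran the other way on the left, where 12 of 12 were higher in deaf arrays (0.34), and 7 of 12 were lower on the right (-0.031). Their summed intensity was 1021 to 1506 in left control, 1195 to 2405 in left deaf, 1058 to 1989 in right control and 861 to 1996 in right deaf arrays, with overlap on each side. Tectal neuron markers were lower for 13 of 17 genes on the left (-0.092) and 9 of 17 on the right (-0.0044). General neuronal markers were lower for 8 of 15 genes on the left (-0.0098) and 4 of 15 on the right (0.027). Microglial markers were lower for 6 of 11 genes on the left (-0.0061) and 7 of 11 on the right (-0.073). No marker gene of these lists passed the adjusted threshold. The part of these cells in the Slc12a2 values was not tested.

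Gabbr1 (Entrez 81657), the GABA-binding subunit, varied least of the 4 genes, within a 1.11-fold range over all 12 arrays. It was at 10.59, 10.60 and 10.70 on the left control arrays and at 10.62, 10.61 and 10.55 on the left deaf arrays. On the right it was at 10.55, 10.71 and 10.70 in control and at 10.63, 10.60 and 10.67 in deaf arrays. The groups overlapped on each side. Deafness gave a difference of -0.037 on the left (SE 0.075; -0.20 to 0.13; unadjusted p = 0.634, limma) and -0.017 on the right (SE 0.075; -0.18 to 0.15; unadjusted p = 0.825, limma). With 1 array left out the left value ran from -0.054 (left control 1) to -0.0030 (left control 3). A change beyond 0.871-fold to 1.09-fold on the left, or beyond 0.883-fold to 1.11-fold on the right, lay outside these intervals. The order of group means was right control (10.65 ± 0.086, SD, n = 3), right deaf (10.64 ± 0.034), left control (10.63 ± 0.058) and left deaf (10.59 ± 0.036), with no separation between neighbours.

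Gabbr2 (Entrez 83633), the subunit that couples to G proteins, was at 9.11, 9.20 and 9.30 on the left control arrays and at 9.15, 9.26 and 9.23 on the left deaf arrays. On the right it was at 9.15, 9.29 and 9.27 in control and at 9.20, 9.28 and 9.39 in deaf arrays. Every group overlapped every other. The difference was 0.012 on the left (SE 0.084; -0.17 to 0.20; unadjusted p = 0.885, limma) and 0.056 on the right (SE 0.084; -0.13 to 0.24; unadjusted p = 0.519, limma). The right-side value was 0.0067 without right deaf 3 and 0.10 without right deaf 1. The highest mean was in right deaf (9.29 ± 0.094, SD, n = 3), followed by right control (9.24 ± 0.076), left deaf (9.21 ± 0.055) and left control (9.20 ± 0.094). Between the sides, left minus right was -0.035 in control and -0.079 in deaf arrays for Gabbr2, and -0.025 and -0.045 for Gabbr1. For Slc12a5 the left-right difference was -0.072 among control and 0.040 among deaf arrays. These 6 differences had unadjusted p-values of 0.367 to 0.744 and adjusted p-values of 0.952 to 1.00 (limma).

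**Figure D2:**
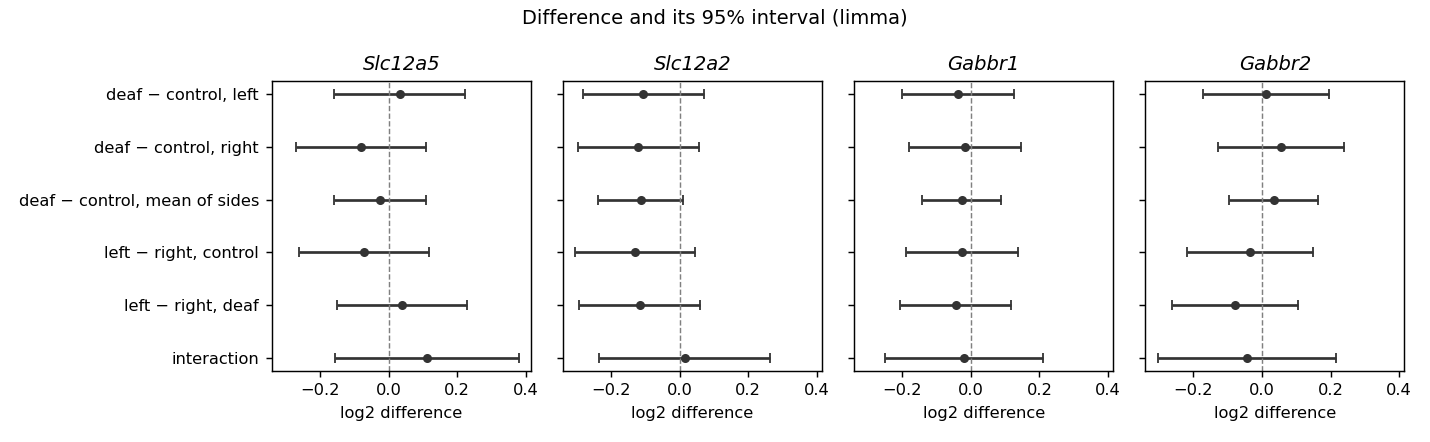
Log2 difference (points) with its 95% interval (bars) from the limma fit for the 4 genes in 6 contrasts: deafness in the left IC, in the right IC and over both, left against right among control arrays and among deaf arrays, and the side by deafness interaction. Every interval includes 0, and the averaged Slc12a2 interval, -0.24 to 0.011, reaches least beyond it.

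Effects of deafness on the 2 sides were compared by the interaction. It was 0.11 for Slc12a5 (SE 0.12; -0.16 to 0.38), -0.020 for Gabbr1 (SE 0.11; -0.25 to 0.21) and -0.044 for Gabbr2 (SE 0.12; -0.30 to 0.22). Together with the value for Slc12a2 given above, unadjusted p-values were 0.380 to 0.904 and adjusted p-values were 1.00 (limma). None of these contrasts had a gene past the adjusted threshold among all 18166 genes, so the share called was 0% throughout. At an unadjusted p under 0.05, limma had 3.69% of all genes on the left, 4.31% on the right, 4.53% averaged over sides, 4.95% between sides in control, 3.34% between sides in deaf arrays and 3.42% for the interaction, and in this fit none of the 4 members was among them. Averaged Slc12a2 was under 0.05 unadjusted in some alternative fits, with p as low as 0.0272 (limma with a trended and robust variance), where its adjusted p was 0.998. Of all genes, 10.3% had deaf arrays lying wholly to one side of control arrays on the left and 7.48% on the right. For both sides pooled the share was 0.27%, and between the sides it was 9.8% in control and 8.31% in deaf arrays. No member was among them.

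The spread between arrays of a group was small for these genes. The residual SD was 0.088 for Slc12a5, 0.073 for Slc12a2, 0.057 for Gabbr1 and 0.081 for Gabbr2, where the median over all genes was 0.152. It was lower in only 14.6%, 7.60%, 2.80% and 11.5% of genes. Set against the 500 genes nearest in mean level, the residual SD of Slc12a5 and Gabbr2 lay near the middle (45.4% and 40.6% of those genes had a lower one), whereas that of Slc12a2 and Gabbr1 lay lower (30.4% and 13.8%). The 95% intervals for deaf minus control within a side reached 0.16 to 0.19 to either side of the estimate.

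The balance of paired genes on the same array was described without a test. Since probes differ in response, only changes of the log2 difference between genes can be read, not its size. Slc12a5 minus Slc12a2 was -0.84 ± 0.081 (SD, n = 3) in left control, -0.70 ± 0.070 in left deaf, -0.89 ± 0.075 in right control and -0.85 ± 0.086 in right deaf arrays. It was higher in left deaf than in left control by 0.14, and the arrays did not overlap: the lowest left deaf array was at -0.74 and the highest left control array at -0.76. Single genes failed to overlap in this contrast in 10.3% of cases, and no such share was computed for differences between genes. With 1 array left out the left change was 0.098 to 0.18. On the right the change was 0.040, within the spread, and turned to -0.0073 without right deaf 1. Left deaf arrays also lay above right deaf arrays, by 0.16, where single genes failed to overlap in 8.31% of cases.

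Gabbr1 minus Gabbr2 was 1.43 ± 0.050 (SD, n = 3) in left control, 1.38 ± 0.079 in left deaf, 1.42 ± 0.011 in right control and 1.34 ± 0.077 in right deaf arrays. Deaf minus control was -0.049 in the left IC and -0.073 in the right IC, and the arrays overlapped on each side.

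**Figure D3:**
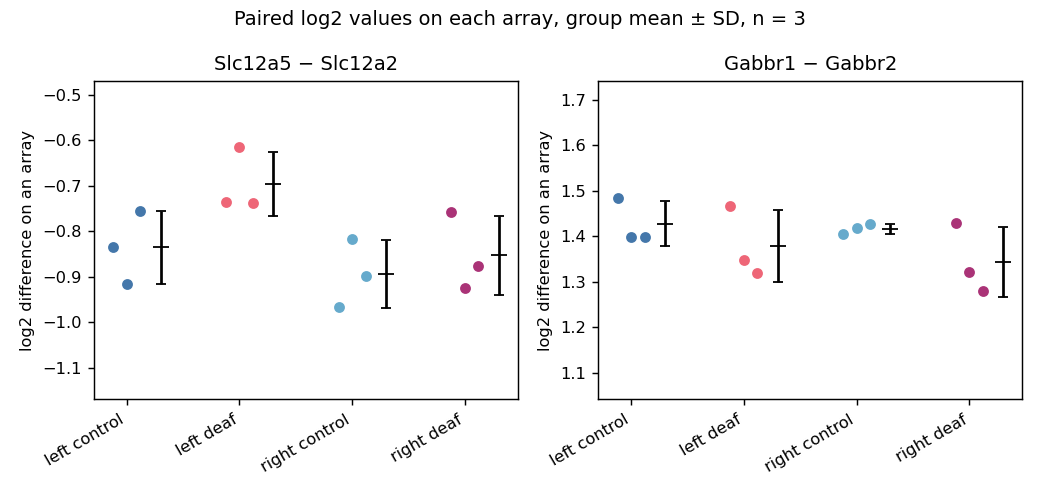
Log2 difference between paired genes on each of the 12 arrays (points, coloured by group), with the group mean ± SD (black, n = 3 arrays): Slc12a5 minus Slc12a2 at left and Gabbr1 minus Gabbr2 at right. The 3 left deaf arrays lie above the 3 left control arrays for the cotransporters, by a gap between -0.76 and -0.74, and the receptor groups overlap.

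Across the 12 arrays Slc12a5 and Gabbr1 rose and fell together. Over the 6 pairs of members, theirs was the closest relation (Pearson's r = 0.77, permutation p = 0.00315, adjusted over 6 pairs 0.0189; Spearman's rho = 0.80, permutation p = 0.00281, adjusted 0.0169). Without right controls 1 and 3, the arrays farthest from the median of Slc12a5, r was 0.64 (permutation p = 0.0450). Within groups, after removal of group means, it was 0.88. Of genes above the median level, 1.13% had a higher r with Slc12a5. Gabbr1 and Gabbr2 had r = 0.62 (permutation p = 0.0334, adjusted 0.10) and rho = 0.67 (permutation p = 0.0203, adjusted 0.0609), which did not pass. The pair Slc12a5 and Slc12a2 had r = 0.44 (permutation p = 0.151, adjusted 0.226) and rho = 0.12 (permutation p = 0.721, adjusted 0.721), and without right controls 1 and 3 r was 0.13. The other 3 pairs had r of 0.19 to 0.55, with adjusted permutation p-values of 0.123 to 0.548, and rho of 0.21 to 0.41, with 0.382 to 0.610. These p-values treat the arrays as independent, although left and right arrays may share rats.

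Genes most like each member over the 12 arrays were taken from 9008 named genes above the median level, by Pearson's r and as a description. For Slc12a5 they were Vmac (r = 0.92), Ntrk2 (0.92) and the olfactory receptor gene Or6c35f (0.91), and Slc19a2, a thiamine transporter gene, ran most opposite (-0.92). After removal of group means r was 0.92 for Vmac, 0.91 for Ntrk2 and 0.94 for Or6c35f, so Ntrk2 did not stand out among them. Whether any of these genes is linked to Slc12a5 was not tested. Ntrk2 encodes TrkB, the receptor for BDNF, whose signalling is known to act on KCC2. It was at 9.96 and 9.94 on right controls 3 and 2, the arrays highest in Slc12a5, and at 9.81 on right control 1, the array lowest in it. Ntrk2 itself differed little between the arms, by 0.011 (SE 0.071) on the left and -0.054 (SE 0.071) on the right.

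For Slc12a2 the most similar genes were Fyn, a Src-family kinase gene (r = 0.93), Btbd1 (0.87) and Fgf12 (0.87), and B4gat1 ran most opposite (-0.95). For Gabbr1 they were Marchf4 (0.89), Marcks (0.88) and Nxnl1 (0.85), against Nudcd1 (-0.92). For Gabbr2 they were Cx3cl1, the fractalkine gene (0.84), Bbs4 (0.83) and Gpr19 (0.81), against Nemf (-0.90). After removal of group means, r ran from 0.61 for Fgf12 with Slc12a2 to 0.95 for Marcks with Gabbr1 over these 12 most similar genes. Both values of a point come from the same array.

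**Figure D4:**
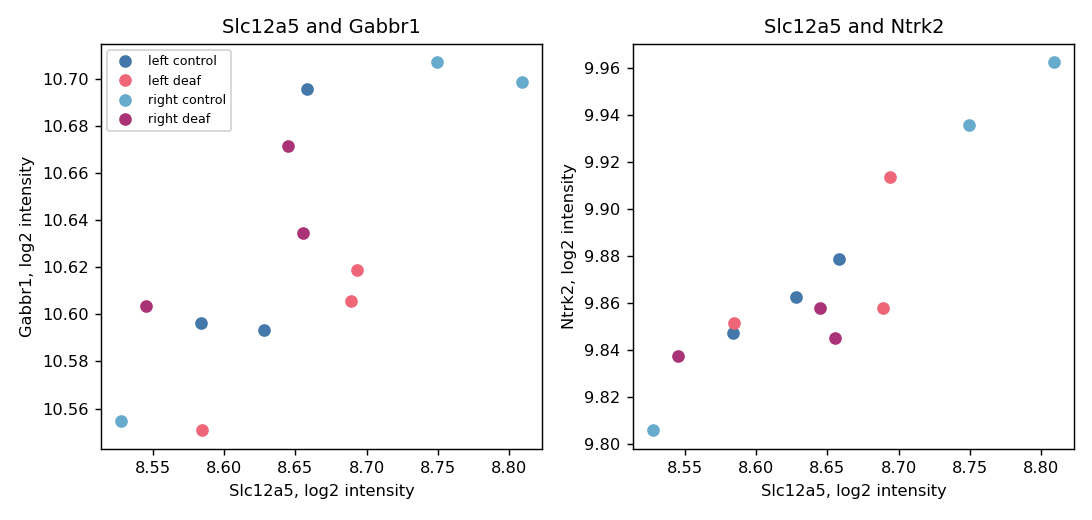
Log2 intensity of Gabbr1 (left) and Ntrk2 (right) against that of Slc12a5 on the 12 arrays, coloured by group. The points rise from right control 1 at the lower left to right controls 2 and 3 at the upper right (r = 0.77 for Gabbr1 and 0.92 for Ntrk2).

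Other genes that handle chloride or act with the GABA-B receptor were followed through 6 lists of 91 genes in all, of which 79 had a probe of their own symbol. None of the 79 passed the adjusted threshold of limma in the left or the right contrast, where 0% of all genes did. At an unadjusted p under 0.05 there were 7 of 79 on the left (8.86%, against 3.69% of all genes) and 0 of 79 on the right (against 4.31%). For the interaction there were 4 of 79 (5.06%, against 3.42% of all genes): Egr4, Kctd12, Rgs4 and Clcn1. The interaction is given below for all of these but Clcn1, where it was -0.60 (SE 0.23; unadjusted p = 0.0215, limma). Deaf and control arrays did not overlap for 8 of 79 on the left (10.1%, against 10.3% of all genes). On the right they did not overlap for 5 of 79 (6.33%, against 7.48%). A lack of overlap was thus no more frequent in the lists than among all genes. Over the 79, the median change was 0.0014 on the left and -0.032 on the right, beside -0.0051 and 0.0014 over all genes. Means were higher for 41 of 79 on the left, against 48.2% of all genes, and for 35 of 79 on the right, against 50.5%. The genes named below are those with the smallest p of their list, together with Stk39 and Kcnj3, which were added after their values were seen. None of them passed.

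Among the other SLC12 cotransporters, 5 of 7 were measured, with 3 higher and 2 lower on the left (median 0.055) and 2 higher and 3 lower on the right (-0.071). Slc12a4, which encodes the widely expressed KCC1, was at 0.14 (SE 0.11) on the left and 0.077 on the right. Slc12a1, the kidney cotransporter NKCC2, was at -0.39 (SE 0.16; unadjusted p = 0.0292, limma) and -0.20, but its mean of 3.14 lay below the lower quartile of the arrays, 3.78, where background limits a difference. Slc12a7, which encodes KCC4, was at 0.13 (SE 0.17) and -0.080, and Slc12a8 was at -0.11 (SE 0.13) and 0.052. No array group of this list separated on either side.

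Kinases, partners and regulators of the cotransporters had 6 of 16 members higher on the left (median -0.076) and 8 of 16 higher on the right (-0.017). Wnk2, a kinase of the WNK family that senses chloride, was at 7.52, 7.61 and 7.53 in left control and at 7.83, 7.73 and 7.66 in left deaf arrays, a difference of 0.19 (SE 0.077; unadjusted p = 0.0336, limma). Those arrays did not overlap. On the right Wnk2 differed by 0.071, with overlap. Neto2, an auxiliary protein that binds KCC2, was at -0.18 (SE 0.091) on the left and -0.13 (SE 0.091) on the right, where all 3 deaf arrays lay below the controls. Rest, a repressor of Slc12a5, was at -0.17 (SE 0.10) and -0.19 (SE 0.10). Stk39, the SPAK kinase that phosphorylates NKCC1 and KCC2, was at -0.11 (SE 0.084) and -0.080. Egr4, an activator of Slc12a5 with a mean of 4.57, below the array median, was at -0.18 (SE 0.13) on the left and 0.26 (SE 0.13) on the right, with an interaction of -0.44 (SE 0.19; unadjusted p = 0.0368 and adjusted p = 1.00, limma). Its level on right control 3 was 4.20, against 4.63 and 4.55 on the other right controls.

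Of the other chloride and bicarbonate routes, all 21 were measured: 10 were higher on the left (median -0.0029) and 5 on the right (-0.050). Clcn1, a chloride channel known from skeletal muscle, was at -0.35 (SE 0.16; unadjusted p = 0.0481, limma) on the left and 0.25 (SE 0.16) on the right, with overlap on each side and a low mean of 4.65. Slc4a8, a sodium-driven chloride-bicarbonate exchanger of neurons, was 0.19 higher (SE 0.10) on the left, with no overlap, and 0.056 on the right. Slc4a3, another anion exchanger of neurons, was at -0.16 and -0.23 (SE 0.15). Clcn5 (-0.21 left, SE 0.12) and Clcn7 (-0.14 right, SE 0.090) had overlapping arrays.

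Proteins that bind the GABA-B receptor had 8 of 12 members higher on the left (median 0.059) and 5 of 12 on the right (-0.028). Kctd12, an auxiliary subunit that speeds the receptor's desensitisation, had means of 6.62 ± 0.17 (SD, n = 3) in left control and 6.82 ± 0.15 in left deaf arrays. On the right the means were 6.91 ± 0.17 in control and 6.68 ± 0.040 in deaf arrays. Its changes thus pointed in opposite directions, 0.20 (SE 0.12) and -0.23 (SE 0.12), with an interaction of 0.43 (SE 0.16; unadjusted p = 0.0233 and adjusted p = 1.00, limma), and arrays overlapped on each side. Gprin1 was at -0.22 (SE 0.097; unadjusted p = 0.0443, limma) on the left and -0.093 on the right, without overlap on either side. Atf4, a transcription factor that binds the receptor, was at -0.12 (SE 0.081) on the left, without overlap, and 0.12 (SE 0.081) on the right. Ddit3, a stress-response factor that also binds it, was at 0.16 (SE 0.088) on the right.

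Of the G proteins and their regulators, 13 of 20 were measured, with 6 higher on the left (median -0.014) and 8 on the right (0.023). Rgs4, which speeds the shut-off of inhibitory G proteins, was at 7.79, 7.96 and 7.77 in left control and at 7.39, 7.41 and 7.48 in left deaf arrays. The left deaf arrays lay clear of the controls, by -0.41 (SE 0.099; unadjusted p = 0.00130 and adjusted p = 0.986, limma). On the right Rgs4 was at 7.85, 7.78 and 7.50 in control and at 7.80, 7.76 and 7.79 in deaf arrays, a difference of 0.072 (SE 0.099). The interaction was -0.48 (SE 0.14; unadjusted p = 0.00466 and adjusted p = 1.00, limma).

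Rgs11, another RGS protein gene, ran the other way. It was at 6.21, 6.27 and 6.31 in left control and at 6.63, 6.45 and 6.65 in left deaf arrays, 0.31 higher (SE 0.092; unadjusted p = 0.00544 and adjusted p = 1.00, limma) without overlap. On the right it was 0.20 higher (SE 0.092; unadjusted p = 0.0540, limma), and right control 3, at 6.37, overlapped the lowest deaf array, at 6.33. Gnaz, an inhibitory G protein gene of neurons, was at -0.25 (SE 0.090; unadjusted p = 0.0154, limma) on the left, where one deaf array reached the control range, and at -0.039 on the right. Gnb5, whose protein partners the RGS subfamily that holds Rgs11, was at 0.074 (SE 0.074) on the left and 0.11 (SE 0.074) on the right, where the arrays did not overlap. Grk4, a kinase of G protein-coupled receptors, was at -0.051 and -0.13 (SE 0.11).

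Effectors of the receptor had 8 of 12 members higher on the left (median 0.031) and 7 of 12 on the right (0.015), with 0 of 12 at an unadjusted p under 0.05 on either side. Kcnj3 and Kcnj6, which encode the potassium channel subunits GIRK1 and GIRK2, were at 0.10 (SE 0.089) and -0.054 (SE 0.079) on the left and at -0.021 and -0.089 on the right. The presynaptic calcium channel genes Cacna1a and Cacna1b were at 0.0046 (SE 0.087) and 0.12 (SE 0.099) on the left and at 0.11 and 0.046 on the right. Kcnj5, the GIRK4 gene, was at 0.22 (SE 0.14) and 0.013, with a low mean of 4.59. Among adenylyl cyclases, Adcy1 was at 0.13 (SE 0.098) on the left, and Adcy2 was at 0.058 (SE 0.069) on the left and -0.099 (SE 0.069) on the right, with no overlap on either side.

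**Figure D5:**
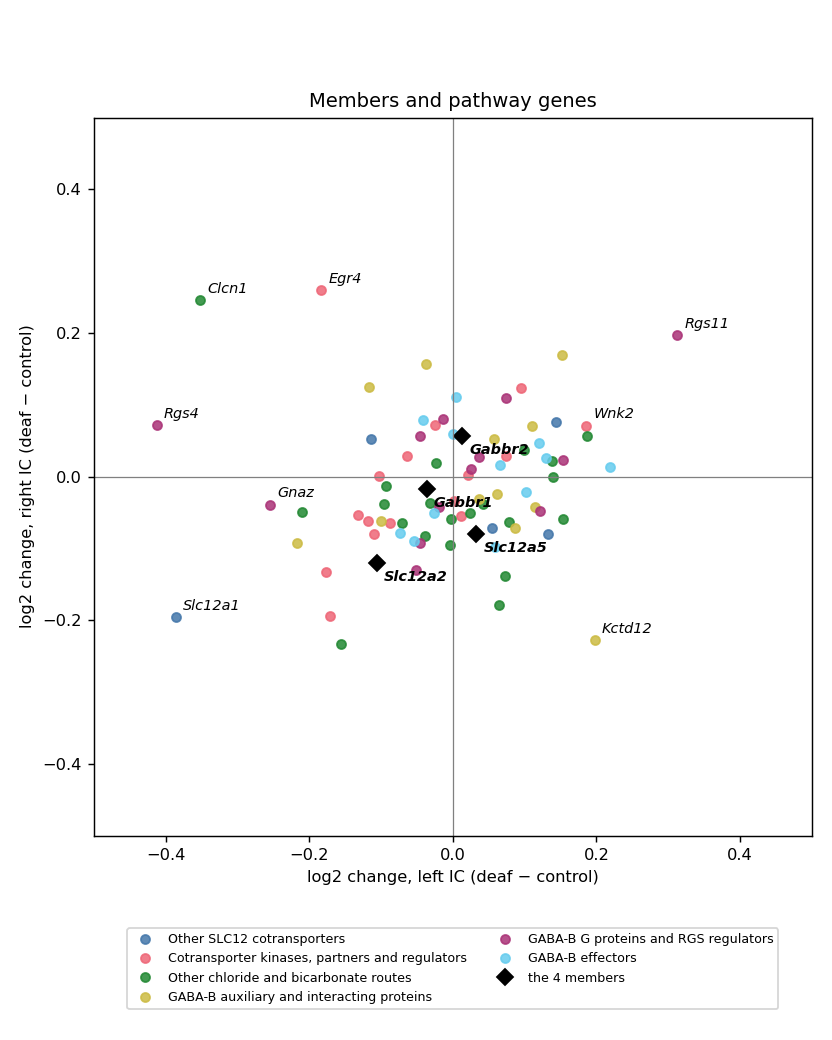
Log2 change (deaf minus control) in the left IC against that in the right IC for the 4 members (black diamonds) and the 79 measured genes of the 6 lists (circles, coloured by list). The members lie within 0.12 of 0 on both axes, and Rgs4 (-0.41) and Rgs11 (0.31) lie farthest out on the left-IC axis in either direction.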

How the data were processed

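The deposited values are log2 intensities of 12 arrays, whose medians and quartiles were already closely alike and were not normalized again. Per the labels' protocols, biotin-labelled single-stranded cDNA was hybridised to Affymetrix arrays; the array model and the software are not named there. Of 29489 probes, those with exactly 1 gene symbol (18511) were kept, and the brightest stood for a gene (18166 genes). Correlations between arrays were 0.982 to 0.993, and the number of arrays limits the precision.

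Group means and 6 contrasts were fitted with limma 3.58.1 (R 4.3.3) on all genes and 12 arrays (8 residual and 3.79 prior degrees of freedom). Tests were two-sided at 0.05 after Benjamini-Hochberg adjustment over all genes. For 3 arrays in each group the smallest exact permutation p is 0.1. Correlations of members used 100000 permutations. The fit was also run on simulated data with independent noise and added changes larger than those of the members. That run does not show whether changes as small as theirs would be found.

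The members and gene lists were chosen with earlier results of these data known. Named list genes are the 3 with the smallest p on each side, and the genes most like a member are the 3 of highest and the 1 of lowest r, predicted genes left out. Stk39, Ntrk2, Kcnj3 and marker genes outside that rule were named after their values were seen. Alternatives were quantile normalization, median centring, a filter on dim genes, the mean of probes, a trended and robust variance, array weights, a fit on the contrast's own groups, a replicate-number block and leaving out each array. Promoter windows come from RefSeq (GRCr8), and all 4 members matched by Entrez identifier and symbol.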

Additional observations from a re-analysis of the deposited data

How the results depend on the processing

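No member passed the adjusted threshold under any alternative (208 values over 24 member results, and 288 with 1 array left out). Some of these values could hardly differ from the main fit. With 1 probe per member, the mean of probes returned the same estimates. Median centring changed them little, since the array medians were already alike. Slc12a5 on the left was at 0.032 in the main fit and under each of these alternatives. The unadjusted limma p of averaged Slc12a2 fell under 0.05 with a trended and robust variance (0.0272), among genes above the median level (0.0448), without right control 1 (0.0402) and without left deaf 1 (0.0485). Those fits also treat left and right arrays as independent. The sign turned for Gabbr1 left minus right in control after quantile normalization (0.011) and for the Slc12a2 interaction with array weights (-0.0040), and the cause was not tested. With 1 array left out the sign turned in 17 of 288 values: Gabbr2 on the left (-0.034 to 0.061), Gabbr1 on the right (-0.066 to 0.0100), averaged Slc12a5 (-0.066 to 0.0046), left minus right in control for Gabbr1 (-0.074 to 0.0018) and Gabbr2 (-0.084 to 0.011), and the interactions of Slc12a2 (-0.045 to 0.061), Gabbr1 (-0.047 to 0.030) and Gabbr2 (-0.090 to 0.0057). Not all of the 288 could turn. For a contrast within a side or within an arm, leaving out an array of another group does not change the estimate. Among all genes, none passing in the main fit, the count called was 1 for left deaf against control and 1 for left minus right in deaf arrays among genes above the median level (fewer genes tested), 1 and 2 with a trended and robust variance, and 1 for left minus right in control and 1 for the interaction with the replicate block. With 1 array left out it was 0 to 1 for left deaf against control and 0 to 1 averaged over sides. Numbers were not taken to pair the arrays: of 6 pairs of the same arm and number, 2 had deviations correlated above 0.1 (-0.056 to 0.15), and neither replicate block brought a member past the threshold (averaged Slc12a2 stayed at -0.11 with the replicate block).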

Other observations

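Over the 16 measured regulators of the cotransporters, Pearson's r with Slc12a5 across the 12 arrays ran from -0.75 for Egr4 to 0.92 for Ntrk2, with a median of -0.026. Over the 9008 genes above the median level it ran from -0.92 to 0.92, with a median of -0.066. An r above 0.5 was found for 12.5% of the regulators and 10.4% of those genes. For Slc12a2 the 16 ran from -0.68 for Epb41l1 to 0.66 for the kinase gene Stk39, with a median of 0.33 beside -0.025. Among the other SLC12 genes, Slc12a4 (KCC1) ran against Slc12a2 (r = -0.87). These genes were singled out after their values were seen, and r over 12 arrays is given as a description.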
